A study of Mus musculus with 6 samples.

Results

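Receptor tyrosine kinases are membrane proteins that bind a growth factor outside the cell, pair up and phosphorylate each other on tyrosines inside it. Adaptors such as GRB2 and SHC1 then pass the signal to the RAS-MAPK and PI3K-AKT pathways, and inhibitors such as the Sprouty and DUSP proteins, which are themselves induced by the signal, damp it again. In β cells the insulin and IGF1 receptors, MET, KIT and the EGF receptor are known for roles in β cell mass, survival or growth, whereas PDGF receptors are best known from mesenchymal cells and from young, proliferating β cells. The 10 genes described here are *Pdgfra*, its relative *Pdgfrb*, its chromosomal neighbour *Kit*, and *Insr*, *Igf1r*, *Fgfr1*, *Met*, *Egfr*, *Erbb3* and *Ret*. They were taken by symbol from 53801 mouse genes in the deposited tables. The expression filter, a mean of at least 0.5 TPM (a read count per length, explained with the samples) over the clones, left 17823 genes and 8 of the 10 receptors. *Pdgfrb* and *Erbb3* were under it.

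RNA came from MIN6, a mouse insulinoma line used as a β cell model, and all 6 lines were single-cell clones of MIN6 cells that express Cas9 and were infected with lentivirus for a gRNA. The 3 control clones carry a gRNA to an intron of *Snd1*. The 3 *Snd1* KO clones, called KO clones here, carry gRNAs to its exon 2. By the paper, the gRNA of KO 3 differs from that of the other KO clones. Both groups thus went through editing and puromycin selection, and each clone gave 1 library. *Snd1* encodes a coregulator that the study examined as a partner of PDX1, and the comparison asks which genes depend on it. TPM, the unit of the values, divides the reads of each gene by its length and scales every library to a total of 1000000.

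Reads recovered from the steps in the TPM numbered between 25805760 and 32993334 per clone. The floor of detection was taken as 3 reads, which correspond to between 0.0212 and 0.0245 TPM for *Pdgfra*. The paper states fewer reads per library, so a recovered read may not be an independent fragment. The counting intervals given below may then be too narrow. *Snd1* itself was between 112 and 119 TPM in control clones and at 14.7, 57.1 and 19.9 TPM in KO clones 1 to 3. The paper chose the KO clones as SND1-deficient by immunoblot and reports indels that disrupt the protein. These RNA levels do not measure the protein. The β cell markers *Ins1*, *Ins2*, *Pdx1*, *Nkx6-1* and *Mafa* had at least 6111 reads in every clone, whereas *Ucn3*, a marker of mature β cells, had 317 reads in KO 1 and at most 5 in the other clones. Control 3 stood apart from its group: the root mean square difference of log2(TPM + 1) over all genes tested was 0.480 between Control 1 and Control 2, but 0.690 and 0.704 between Control 3 and these clones, and 0.651 between Control 3 and KO 3. KO 1 also stood apart, at 0.723 from KO 3 and 0.772 from KO 2, which lay 0.561 from each other. In bulk RNA, fewer cells that express a gene and less of its RNA per cell cannot be told apart.

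Of the 8 receptor genes tested, all KO clones were below all control clones for *Pdgfra* and above them for *Igf1r*. Their groups therefore did not overlap, as for 13.7% of all genes tested, 4.03% lower and 9.69% higher in KO clones. *Ret* differed most between clones of 1 group. *Kit*, *Insr*, *Fgfr1*, *Met* and *Egfr* overlapped between the groups. None of the 8 passed an adjusted p-value under 0.05 with a change of at least 2-fold in limma, which 0.00561% of genes did, namely 1 gene in all. By a looser criterion, at least 2-fold and an unadjusted p-value under 0.05, 2 of the 8 qualified. They were *Pdgfra* on the lower side, where 0.724% of genes qualified, and *Igf1r* on the higher side, with 1.52% of genes, or 2.24% in all. Which genes had groups without overlap depended on single clones for some of the 8. *Pdgfra* and *Igf1r* kept their groups apart whichever clone was left out. Without Control 3, *Insr* and *Egfr* were also lower and *Ret* higher in all KO clones, which made 5 of 8, when 35.1% of all genes tested had no overlap. Without Control 2, *Fgfr1* and *Met* were added on the lower side (18.1% of genes), and without KO 3, *Ret* on the higher side (21.8% of genes). Without Control 1, KO 1 or KO 2 there was no addition (19.9%, 33.5% and 20.2% of genes). The median log2 fold change of the 8 was −0.06, and 0.04 for all genes tested.

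**Figure D1:**
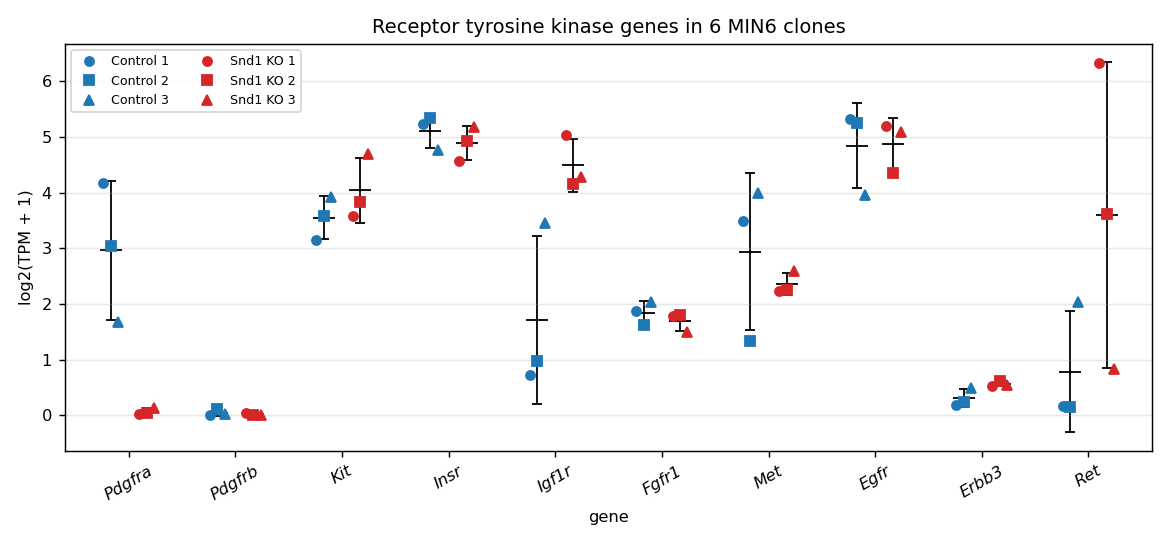
The plot shows log2(TPM + 1) of each receptor gene in each clone, with control clones in blue and KO clones in red, and black bars for the mean and SD of each group (n = 3). *Pdgfra* is near 0 in the 3 KO clones, *Igf1r* is higher in all of them than in any control clone, and *Ret* spreads from 0.792 to 79.3 TPM within the KO group.

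The class of PDGF and KIT receptors was examined first. *Pdgfra* (ENSMUSG00000029231, plus strand of chromosome 5 from 75152292 to 75198215, GRCm38) encodes the α receptor for platelet-derived growth factors. It was at 17.0, 7.28 and 2.19 TPM in control clones 1 to 3 and at 0.0235, 0.0326 and 0.0987 TPM in KO clones 1 to 3. The control values rest on 2412, 978 and 268 reads, and those of the KO clones on 3, 4 and 13. *Pdgfra* was thus present in every control clone, though 7.77-fold higher in Control 1 than in Control 3. It was at or near the floor of detection in KO 1 and KO 2, and low but above the floor of 0.0228 TPM in KO 3. The exact 95% Poisson intervals were 0.00485 to 0.0688 TPM in KO 1, 0.00887 to 0.0834 TPM in KO 2 and 0.0526 to 0.169 TPM in KO 3, all below the lower bound of 1.94 TPM in Control 3. Such intervals cover counting error only.

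The mean of *Pdgfra* was 8.84 ± 7.55 TPM in control and 0.0516 ± 0.0410 TPM in KO clones (SD, n = 3 each), or 0.584% of control. Pooled over clones, 3658 reads in control and 20 in KO clones gave a 176-fold difference per read on genes, with an exact 95% counting interval of 114 to 289. The pooled value rested on single clones, since it was 94.7-fold without Control 1 and 327-fold without KO 3, and between 137-fold and 229-fold with any other single clone left out. On the log2(TPM + 1) scale, which understates changes of genes with few reads, the log2 fold change was −2.89 (standard error, SE, 0.59, unadjusted p = 0.00202, adjusted p = 0.450, limma). It was the 10th lowest among the 17823 genes. An exact permutation test of 3 clones against 3 gave p = 0.1, the smallest it can give. Leaving out Control 1 moved the log2 fold change to −2.29 and leaving out Control 3 moved it to −3.54. With clones weighted by their estimated quality, *Pdgfra* passed (adjusted p = 0.0179), as 5.02% of genes did, and over all its alternatives the adjusted p ran from there to 0.939.

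*Pdgfrb* (ENSMUSG00000024620, chromosome 18 from 61045150 to 61085061), which encodes the β receptor, was covered by 0, 5 and 1 reads in control clones 1 to 3 and by 2, 0 and 0 in KO clones 1 to 3. All but the value of Control 2 were at or under 3 reads, and no fold change was taken. A floor of 3 reads corresponds to between 0.0484 and 0.0560 TPM for this gene, so lower levels were not detectable at this depth.

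*Kit* (ENSMUSG00000005672, plus strand of chromosome 5 from 75574916 to 75656722) encodes the receptor for stem cell factor and starts 377 kb after the end of *Pdgfra* on the same strand. It was at 7.89, 11.0 and 14.2 TPM in control clones 1 to 3 and at 10.9, 13.3 and 25.0 TPM in KO clones 1 to 3. The groups overlapped, and KO 3 had the highest value. The means were 11.0 ± 3.14 and 16.4 ± 7.56 TPM (SD, n = 3 each), and the log2 fold change was 0.49 (SE 0.33, adjusted p = 0.718, limma). It was 0.16 without KO 3, and 1.09 with clone quality weights, the only alternative in which *Kit* passed (adjusted p = 0.0416, and up to 0.986 in the others).

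The differences of these neighbours were compared directly. Within a clone, log2(TPM + 1) of *Pdgfra* minus that of *Kit* was 1.02, −0.53 and −2.25 in control clones 1 to 3 and −3.54, −3.79 and −4.57 in KO clones 1 to 3. The KO values were all below the control values, with means of −3.97 ± 0.53 and −0.59 ± 1.64 (SD, n = 3 each). The difference of −3.38 had p = 0.1 in an exact two-sided permutation test, again the smallest that 3 clones against 3 can give.

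The other genes around *Pdgfra* were then looked up. With *Pdgfra* itself counted, GENCODE M21 places 11 protein-coding genes in the stretch that reaches 1 Mb to either side, of which 8 passed the filter. The 7 besides *Pdgfra* had log2 fold changes between −0.27 for *Rasl11b* and 0.49 for *Kit*, with a median of 0.04. The closest upstream gene tested was *Chic2*, 108 kb away, with 11.0, 10.9 and 10.6 TPM in control and 11.3, 14.8 and 15.3 TPM in KO clones. It was the 1 of the 7 whose groups did not overlap, a share close to the 13.7% of all genes, and it was higher in KO clones (log2 fold change 0.32, standard error 0.15, adjusted p = 0.607, limma). *Scfd2*, *Fip1l1*, *Srd5a3* and *Tmem165* had log2 fold changes of −0.11, 0.07, 0.02 and 0.04. *Gsx2*, a homeobox gene at −74.4 kb, had 0 reads in 4 clones and at most 0.141 TPM, *Lnx1* at most 0.232 TPM, and *Kdr*, which encodes a VEGF receptor, at most 0.140 TPM. The neighbourhood held genes with levels from near 0 to 131 TPM, and 0 of the 7 met the looser criterion, which 2.24% of all genes did.

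**Figure D2:**
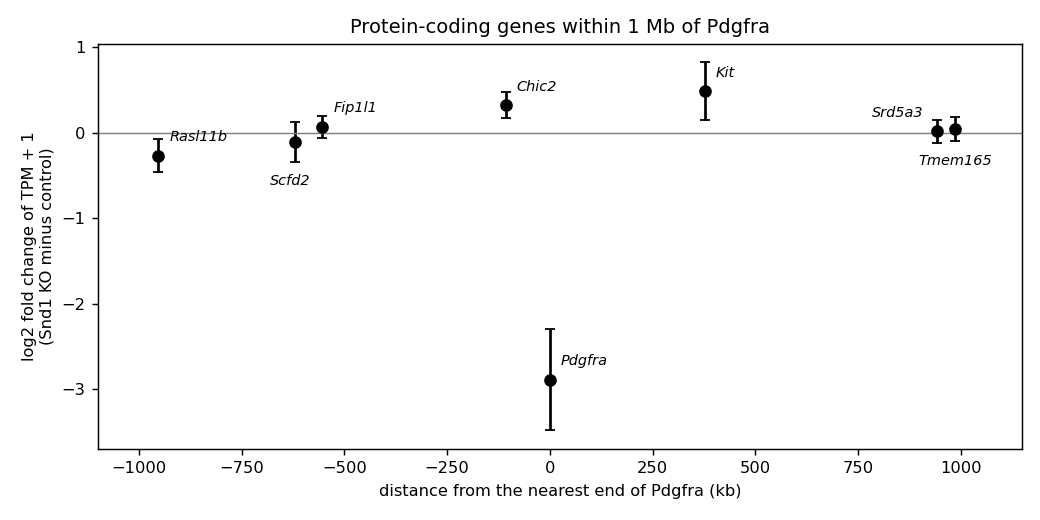
The plot shows the log2 fold change of TPM + 1 (KO minus control, points, with its limma standard error (SE) as bars) of the 8 tested protein-coding genes within 1 Mb of *Pdgfra*, against their distance from its nearest end in kb. *Pdgfra* lies at −2.89 and the other 7 genes lie between −0.27 and 0.49.

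Because *Pdgfra* and *Kit* lie side by side with different values, and *Igf1r* was the tested receptor gene higher in every KO clone, the 250 bases before their start are shown, from RefSeq on build GRCm38.p6. Capitals mark GGGCGG or its reverse complement, the GC box bound by Sp proteins. *Pdgfra* starts after chr5:75152001-75152250, *Kit* after chr5:75574737-75574986 and *Igf1r* after chr7:67952007-67952256, all on the plus strand. These RefSeq starts differ from the GENCODE gene starts: the *Igf1r* window ends before the GENCODE start, and the *Kit* window reaches past it.
Pdgfra: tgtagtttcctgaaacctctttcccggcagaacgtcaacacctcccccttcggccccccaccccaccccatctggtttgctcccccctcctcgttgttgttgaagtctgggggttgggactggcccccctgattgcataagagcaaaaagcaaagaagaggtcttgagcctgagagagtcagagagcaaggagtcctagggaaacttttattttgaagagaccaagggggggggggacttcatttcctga
Kit: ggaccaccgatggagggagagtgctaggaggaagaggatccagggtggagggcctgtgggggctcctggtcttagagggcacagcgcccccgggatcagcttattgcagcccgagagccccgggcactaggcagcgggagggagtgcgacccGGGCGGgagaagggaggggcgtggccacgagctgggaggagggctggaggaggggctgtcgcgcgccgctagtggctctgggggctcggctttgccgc
Igf1r: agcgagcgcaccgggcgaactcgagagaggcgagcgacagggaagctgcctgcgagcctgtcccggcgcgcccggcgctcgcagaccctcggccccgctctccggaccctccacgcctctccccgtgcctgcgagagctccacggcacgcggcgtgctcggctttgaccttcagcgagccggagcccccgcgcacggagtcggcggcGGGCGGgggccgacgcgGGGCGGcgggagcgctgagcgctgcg
The window of *Pdgfra* holds 4 CG dinucleotides and 54.4% G and C, close to the medians of 6 and 52.4% over 32851 promoters. That of *Kit* holds 17 CG dinucleotides at 70.8% and that of *Igf1r* 42 at 77.6%. GGGCGG was found 0 times in the window of *Pdgfra*, 1 time in *Kit* and 2 times in *Igf1r*, and in 32.7% of all promoters of this length. Of the other receptor genes with a RefSeq promoter, *Met* had 3 matches and 24 CG dinucleotides and *Egfr* had 1 match and 11 CG dinucleotides, and the number of matches did not follow the order of the log2 fold changes. TATAAA, searched on both strands like GGGCGG, was found in none of these 3 windows and in 12.4% of all promoters. A match or its absence describes these letters only.

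In the insulin receptor family, *Insr* and *Igf1r* differed in pattern. *Insr* (ENSMUSG00000005534, chromosome 8 from 3122061 to 3279617) encodes the insulin receptor and was at 36.8, 39.3 and 26.1 TPM in control clones 1 to 3 and at 22.7, 29.6 and 35.2 TPM in KO clones 1 to 3. The groups overlapped, with means of 34.1 ± 7.00 and 29.2 ± 6.28 TPM (SD, n = 3 each) and a log2 fold change of −0.22 (SE 0.22, adjusted p = 0.797, limma). *Igf1r* (ENSMUSG00000005533, chromosome 7 from 67952827 to 68233668) encodes the receptor for insulin-like growth factor 1. Control clones 1 to 3 had 0.650, 0.976 and 9.97 TPM of it, from 75, 107 and 995 reads, and KO clones 1 to 3 had 32.0, 16.8 and 18.4 TPM, from 3324, 1681 and 1977 reads. Control 3 lay between the other control clones and the KO clones, and was 15.4-fold above Control 1.

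The means of *Igf1r* were 3.87 ± 5.29 and 22.4 ± 8.34 TPM (SD, n = 3 each), a 5.79-fold ratio that was 27.5-fold without Control 3 and between 4.09-fold and 6.51-fold with any other single clone left out. The log2 fold change was 2.77 (SE 0.72, unadjusted p = 0.00693, adjusted p = 0.568, limma; exact permutation p = 0.1). It was the 10th highest of the 17823 genes. Without Control 3 the log2 fold change was 3.64, with the adjusted p at 0.0563, and without Control 1 it was 2.27. With clone quality weights *Igf1r* passed too (adjusted p = 0.0179), and in its other alternatives the value reached 0.986.

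*Ret* (ENSMUSG00000030110, chromosome 6 from 118151745 to 118197718) encodes the receptor that binds ligands of the GDNF family together with a GFRα coreceptor. It had 7, 6 and 154 reads in control clones 1 to 3 and 4072, 558 and 42 reads in KO clones 1 to 3, or 0.123, 0.111 and 3.13 TPM against 79.3, 11.3 and 0.792 TPM. Control 3 was above KO 3, so the groups overlapped, while the highest value exceeded the lowest 100-fold among KO clones and 28.2-fold among control clones. Only 0.118% of the genes tested had a larger spread within groups on the log2(TPM + 1) scale. The means of 1.12 ± 1.74 and 30.5 ± 42.6 TPM (SD, n = 3 each) gave a log2 fold change of 2.81 (SE 1.33, adjusted p = 0.607, limma), which was 1.44 without KO 1 and 4.18 without KO 3.

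*Fgfr1* (ENSMUSG00000031565, chromosome 8 from 25513654 to 25575718), a receptor for fibroblast growth factors, varied less than 2-fold over all 6 clones. It was at 2.69, 2.06 and 3.09 TPM in control and 2.46, 2.50 and 1.81 TPM in KO clones 1 to 3. The log2 fold change was −0.15 (SE 0.22, adjusted p = 0.874, limma). Its deposited level is low in part because its length was summed over 19 transcripts, as described further on.

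*Met* (ENSMUSG00000009376, chromosome 6 from 17463800 to 17573980) encodes the receptor for hepatocyte growth factor. It was at 10.2, 1.54 and 15.0 TPM in control clones 1 to 3 and at 3.71, 3.78 and 5.002 TPM in KO clones 1 to 3. Control 2 was the lowest and Control 3 the highest of all 6 clones, whereas the KO clones lay within 1.35-fold of each other. The log2 fold change of −0.58 (SE 0.65, adjusted p = 0.822, limma) was −1.38 without Control 2 and −0.054 without Control 3. The spread between control clones thus exceeded the difference between the groups.

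The EGF receptor family was represented by a gene with many reads and one with few. *Egfr* (ENSMUSG00000020122, chromosome 11 from 16752203 to 16918158) was at 38.9, 37.2 and 14.6 TPM in control clones 1 to 3 and at 35.8, 19.5 and 32.9 TPM in KO clones 1 to 3. The means were 30.2 ± 13.6 and 29.4 ± 8.68 TPM (SD, n = 3 each), and the log2 fold change of 0.04 (SE 0.41, adjusted p = 0.991, limma) had no stable sign. It was −0.41 without Control 3, the lowest clone. *Erbb3* (ENSMUSG00000018166, chromosome 10 from 128567523 to 128589652) encodes a receptor with little kinase activity of its own that signals with ERBB2. It had 5, 6 and 12 reads in control and 14, 16 and 15 in KO clones, or 0.145, 0.183 and 0.403 against 0.451, 0.535 and 0.468 TPM. The KO clones were all above the control clones, but the 95% Poisson interval of Control 3, from 0.208 to 0.704 TPM, holds all 3 KO values. In the fit without an expression filter, *Erbb3* had a log2 fold change of 0.26 (unadjusted p = 0.0665, adjusted p = 0.745, limma).

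**Figure D3:**
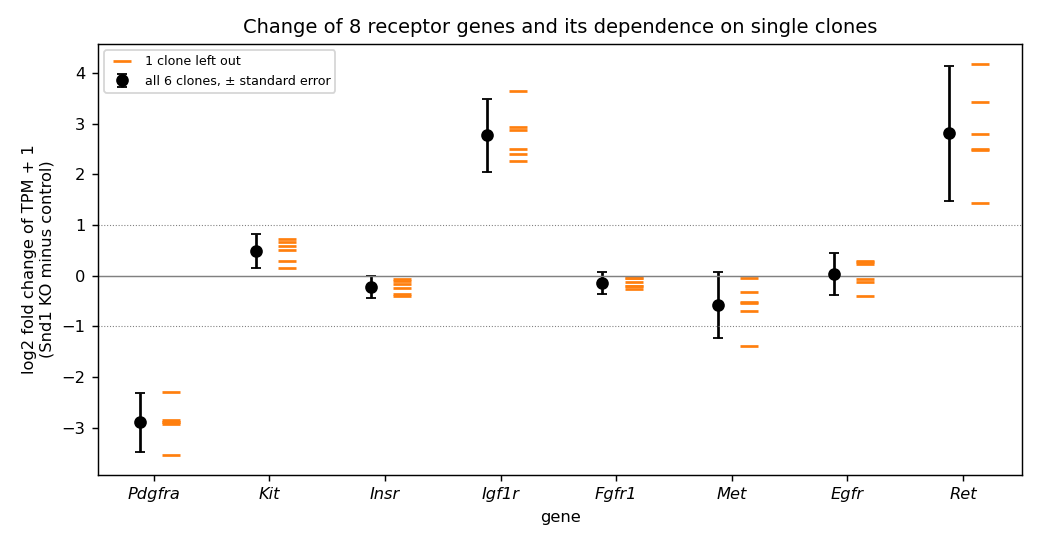
The plot shows for the 8 tested receptor genes the log2 fold change of TPM + 1 (KO minus control) over all 6 clones, with the limma standard error, and beside it the values of the 6 fits that each leave out 1 clone. *Pdgfra* stays between −3.54 and −2.29, *Igf1r* between 2.27 and 3.64 and *Ret* between 1.44 and 4.18, whereas the values of *Egfr* lie on both sides of 0.

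Levels of different receptors were compared on TPM recomputed from the recovered reads with each exonic base of a gene counted once, because the deposited TPM divide by the exons of all transcripts summed. That summed length exceeds the exonic bases 4.34-fold for *Fgfr1*, 2.46-fold for *Pdgfra* and not at all for *Erbb3*, which has 1 transcript. On the recomputed scale, the level averaged over the 6 clones was 24.4 TPM for *Egfr*, 23.4 for *Insr*, 18.3 for *Kit*, 14.6 for *Ret*, 11.3 for *Met*, 9.90 for *Igf1r*, 6.83 for *Pdgfra* and 6.62 for *Fgfr1*. *Erbb3* followed at 0.228 and *Pdgfrb* at 0.0288 TPM. Among neighbours in this order, the higher gene was above the lower one in all 6 clones only for *Fgfr1* over *Erbb3* and *Erbb3* over *Pdgfrb*. Neighbours among the first 8 genes could not be ranked beyond the spread between clones: *Egfr* was above *Insr* in 4 of 6 clones, and *Ret* was above *Met* in 2 of 6. The order also differed between groups. *Pdgfra* averaged 13.6 recomputed TPM in control and 0.0799 in KO clones, while *Igf1r* averaged 2.91 and 16.9. *Ret* averaged 1.03 and 28.2, and its place in the order rested largely on KO 1, at 73.6 recomputed TPM.

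The mouse genome encodes further receptor tyrosine kinases, and 34 of 58 listed genes passed the filter, 8 of the 10 above among them. Of the 34, 8 had an unadjusted p-value under 0.05, or 23.5%, compared with 7.96% of all genes tested. In 9, or 26.5%, the groups did not overlap, 6 with higher and 3 with lower values in KO clones, compared with 13.7%. The median log2 fold change of the 34 was 0.09. Besides *Pdgfra* and *Igf1r*, 2 receptor genes met the looser criterion, among them *Epha1*, and neither passed the adjustment.

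*Epha1*, an ephrin receptor gene, was at 0.0966, 0.102 and 0.587 TPM in control and at 4.72, 2.14 and 1.25 TPM in KO clones (log2 fold change 1.47, adjusted p = 0.568, limma). Receptor genes with the highest level per exonic base were *Ddr1*, a collagen receptor gene, *Ntrk2*, which encodes the receptor for brain-derived neurotrophic factor, and *Ryk*, which encodes a Wnt receptor, over all 6 clones. *Ryk* averaged 64.1 recomputed TPM and *Insrr*, an insulin receptor-related gene, 64.03, so these 2 could not be ranked. The log2 fold changes of *Ddr1*, *Ntrk2* and *Ryk* were −0.02, −0.13 and 0.27, and the groups did not overlap for *Ryk*, at 39.5, 41.8 and 41.5 TPM in control and 49.2, 48.2 and 51.6 TPM in KO clones.

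Among 40 genes for ligands of the 10 receptors, 15 passed the filter. They had a median log2 fold change of 0.23, and 4 had groups without overlap, or 26.7%, compared with 13.7% of all genes. The fibroblast growth factor genes *Fgf1* and *Fgf9* met the looser criterion, or 13.3% of the 15, compared with 2.24% of all genes. *Fgf1* was at 17.5, 12.2 and 9.23 TPM in control and 8.94, 1.49 and 3.31 TPM in KO clones (log2 fold change −1.51, adjusted p = 0.585, limma). *Fgf9* was at 18.0, 19.9 and 7.53 TPM in control and 6.19, 1.89 and 0.308 TPM in KO clones (log2 fold change −2.32, adjusted p = 0.568). In both, Control 3 and KO 1 lay next to each other at the border between the groups. The ligand genes with the highest levels were *Ins2*, *Ins1* and *Igf2*, with log2 fold changes of −0.27, 0.59 and −0.53 and overlapping groups. The insulin genes are related copies, and how reads that match both were handled was not examined.

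Of 22 genes for coreceptors and binding proteins, 12 passed the filter, with a median log2 fold change of 0.14. *Igfbp4*, which encodes a binding protein that holds insulin-like growth factors, was at 4.38, 1.24 and 0.911 TPM in control and 0.0819, 0.142 and 0.317 TPM in KO clones (log2 fold change −1.27, adjusted p = 0.585, limma). It was the only gene of the 12 to meet the looser criterion, or 8.33%, compared with 2.24% of all genes. Groups without overlap were found for 2, or 16.7%, compared with 13.7%, both lower in KO clones. The groups overlapped for *Igf2r*, *Igfbp7* and *Flrt1*, the 3 with the highest level per exonic base, with log2 fold changes of −0.25, 0.09 and 0.20.

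Adaptors and relays below the receptors were tested for 40 of 42 listed genes. Their median log2 fold change was 0.02, and 4 of the 40 had groups without overlap, 2 in each direction, beside 13.7% of all genes. *Src*, which encodes a cytoplasmic tyrosine kinase, was at 12.3, 11.2 and 5.98 TPM in control and 2.04, 4.19 and 2.72 TPM in KO clones (log2 fold change −1.42, standard error 0.32, adjusted p = 0.537, limma). It was the 1 gene of the 40 that met the looser criterion, or 2.5%, close to the 2.24% of all genes. *Ptpn11* and *Mapk3*, among the genes with the highest level per exonic base, had log2 fold changes of −0.32 and 0.10, with overlapping groups.

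Among the inhibitors of receptor signaling, 27 of 30 genes passed the filter. Their median log2 fold change was −0.23, and 6 of 27 were above 0, compared with 57.3% of all genes tested. An unadjusted p-value under 0.05 was found for 8, or 29.6%, compared with 7.96%, and 5 had groups without overlap, or 18.5% compared with 13.7%, 4 of them lower in KO clones. *Dusp6*, which encodes a MAP kinase phosphatase, was at 22.4, 20.6 and 4.97 TPM in control and 6.79, 0.948 and 1.69 TPM in KO clones 1 to 3 (log2 fold change −2.07, adjusted p = 0.585, limma). *Spry4*, a Sprouty gene, was at 29.3, 26.7 and 14.9 TPM in control and 20.1, 0.965 and 2.66 TPM in KO clones (log2 fold change −2.15, adjusted p = 0.607). In both genes KO 1 lay above Control 3, so that the groups overlapped and the lowest values were those of KO 2 and KO 3. The inhibitor genes with the highest level per exonic base, *Ptprf*, *Dusp5* and *Dusp4*, had log2 fold changes of −0.38, −0.58 and −0.90, and the groups did not overlap for *Dusp4* and *Dusp5*.

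Genes that respond to MAPK signaling were tested for 16 of 21 listed. The median log2 fold change was −0.0030, with 8 of 16 above 0. An unadjusted p-value under 0.05 was found for 5 of the 16, or 31.2%, compared with 7.96% of all genes tested. *Etv4* and *Etv5*, ETS factor genes induced by fibroblast growth factors, were among the 3 of 16 that met the looser criterion, or 18.8% compared with 2.24% of all genes, all with a log2 fold change below 0. Groups without overlap were found for 2 lower and 1 higher gene of this list, the same share of 18.8%, compared with 13.7%. *Etv5* was at 45.4, 47.1 and 16.3 TPM in control and 22.8, 1.16 and 4.43 TPM in KO clones 1 to 3 (log2 fold change −2.37, adjusted p = 0.594, limma). *Etv4* was at 5.75, 4.92 and 3.56 TPM in control and 2.14, 0.0771 and 0.733 TPM in KO clones (log2 fold change −1.65, adjusted p = 0.556), without overlap. *Vgf*, which encodes a secreted neuropeptide precursor, was the third, at 235, 228 and 229 TPM in control and 230, 51.8 and 82.9 TPM in KO clones (log2 fold change −1.20, adjusted p = 0.607). KO 1 was within the control range for *Vgf*. *Etv1*, the other gene among the 3 with the highest level per exonic base beside *Vgf* and *Etv5*, had a log2 fold change of −0.02.

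**Figure D4:**
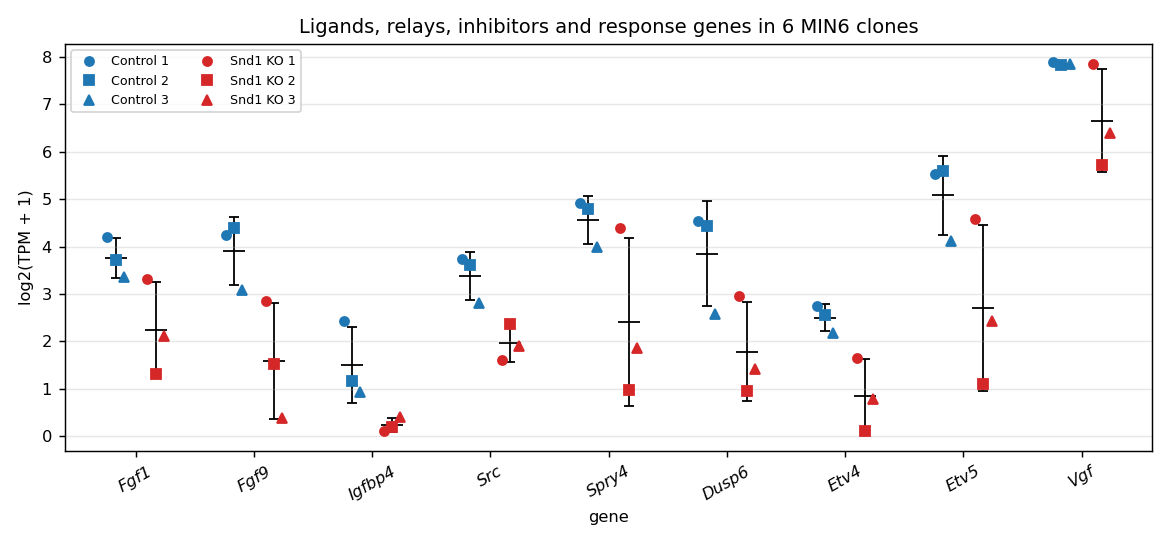
The plot shows log2(TPM + 1) in each clone for the ligand, binding protein, relay, inhibitor and response genes that were at least 2-fold apart at an unadjusted p-value under 0.05, with black bars for the mean and SD of each group (n = 3). Control 3 is the lowest control clone in every gene shown but *Vgf*, and KO 1 is the highest KO clone in every gene shown but *Igfbp4* and *Src*.

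*Pdgfra* also marks mesenchymal cells, so markers of other cell types were measured in the same clones. Of 18 mesenchymal markers 3 passed the filter, and the 18 summed to 11.0, 11.4 and 0.766 TPM in control clones 1 to 3 and to 4.57, 1.97 and 2.78 TPM in KO clones 1 to 3. *Col3a1* had 122, 119 and 0 against 2, 7 and 3 reads, and *Dcn* had 52, 59 and 3 against 4, 7 and 5 reads. Both were named after their values were seen and do not stand for the whole list. The 3 markers that passed the filter had log2 fold changes between −0.87 and −0.31, and the groups overlapped in all 3. Control 1 and Control 2 were highest both in *Pdgfra* and in the sum of mesenchymal markers. Control 3 had the lowest sum of mesenchymal markers of all 6 clones and 268 reads of *Pdgfra*, more than any KO clone.

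The other marker lists were examined for the same reason. Endothelial markers passed the filter for 3 of 12 genes and summed to between 15.1 and 19.9 TPM in control and 15.8 and 27.9 TPM in KO clones, with *Plvap* at 1.49, 0.648 and 2.14 TPM in control and 2.73, 10.3 and 7.08 TPM in KO clones. Immune markers passed for 3 of 12 genes and rested on *C1qa*, at between 76.4 and 202 TPM, while *Ptprc*, which defines leukocytes, had at most 10 reads. None of 12 acinar and duct markers passed. All 16 β cell markers passed, with a median log2 fold change of 0.12, and among them *Slc30a8* was at 215, 191 and 744 TPM in control and 809, 1005 and 779 TPM in KO clones, and *Slc2a2* was at 160, 65.0 and 172 TPM in control and 91.5, 40.5 and 32.8 TPM in KO clones. Of the other islet markers, 5 of 8 α cell genes passed, with log2 fold changes from −1.88 to 1.25 and 2 of 5 above 0. Among them *Irx1* was at 0, 0 and 0.0547 TPM in control and 0.105, 1.58 and 3.30 TPM in KO clones, and *Ttr* was at 17590, 20138 and 14121 TPM in control and 3796, 3032 and 8774 TPM in KO clones. Of 5 δ and PP cell genes 1 passed, *Rbp4*, at 40.002, 32.7 and 23.9 TPM in control and 1.07, 10.1 and 8.29 TPM in KO clones. *Sst*, which defines δ cells, had at most 2.42 TPM. The part of these markers in the receptor values was not tested.

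Finally, genes with a pattern most like that of *Pdgfra* over the 6 clones were sought, by the root mean square difference of log2(TPM + 1) after each gene was centred on its mean. The 5 nearest were *Sp8* (0.451), *Cdhr2* (0.492), *Lrch2* (0.496), *Crp* (0.591) and *Ssc5d* (0.593). *Sp8*, a zinc finger factor gene, was at 164, 94.98 and 56.3 TPM in control and 19.4, 20.3 and 20.7 TPM in KO clones 1 to 3. *Lrch2* was at 12.3, 13.4 and 5.07 TPM in control and 0.104, 0 and 0.00913 TPM in KO clones. Like *Pdgfra*, all 5 had their lowest control value in Control 3, which follows largely from the way they were chosen. The 6 clones are the only points behind this likeness.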

How the data were processed

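The authors sequenced 1 library per clone as paired ends and deposited TPM per gene. The submitters' processing notes name FastQC, Trimmomatic, HISAT2, HTSeq, DESeq2 and build mm10. The gene length, strand setting and annotation release are not given in the sources used here. Gene names and positions came from GENCODE M21 (GRCm38), which matched 53706 of 53801 mouse genes, and 99 spike-in controls were left out. TPM multiplied by the summed exon length of all transcripts gave whole multiples of 1 step per clone, within 0.01 of a whole number, for all 10 receptor genes and for 91.7% of the 14851 genes detected in all 6 clones at a mean of 1 TPM or more, but for 22.6% with each exonic base taken 1 time. For 1779 genes of the whole table a length was searched that gave whole reads, which adds an uncertainty to the totals. Depth and counting intervals rest on these recovered reads, which outnumber the reads per library that the paper states. Overlapping and antisense genes cannot be told apart where strand was not used.

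Genes were kept at a mean of 0.5 TPM or more, and their log2(TPM + 1) was compared between groups with limma 3.58.1 under R 4.3.3 (eBayes, trend over the mean). P-values were adjusted over 17823 genes by Benjamini-Hochberg, and a call needed an adjusted p-value under 0.05 and a 2-fold change. Tables, exact permutation tests and plots were made with Python 3.11.15, numpy 2.4.6, pandas 2.3.3, scipy 1.17.1 and matplotlib 3.10.9. The fit was tested on simulated data. The members and lists were chosen with earlier results of these data known, and lists carry no set test. Named are the 10 receptors, listed genes at least 2-fold apart at an unadjusted p-value under 0.05, the 3 listed genes of each pathway list with the highest level per exonic base, protein-coding genes within 1 Mb of *Pdgfra* and the 5 genes nearest to it in pattern; other genes (*Gsx2*, *Lnx1*, *Kdr*, *Col3a1*, *Dcn*, *C1qa*, *Ptprc*, *Sst*, *Irx1*, *Insrr* and the β cell markers with read counts) were chosen after their values were seen, except those in the neighbourhood. Some genes under this rule are not reported here. RefSeq promoter sequences were found for 5 of the 10 receptors, *Pdgfrb* not included in the search. The alternatives were a pseudocount of 0.1, other filters, scalings and weights, a replicate block, voom on recovered reads and leaving out each clone, which for the pooled reads of *Pdgfra* and the ratio of means of *Igf1r* was added after seeing the data.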

Additional observations from a re-analysis of the deposited data

How the results depend on the processing

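Over 126 refits of the 8 tested receptor genes, 117 kept the direction and the side of the threshold, 3 passed it (*Pdgfra*, *Igf1r* and *Kit* with clone quality weights) and 6 turned sign. The sign of *Egfr* turned with median ratio scaling (−0.0052), clone quality weights (−0.21), without Control 3 (−0.41), without KO 1 (−0.12) and without KO 3 (−0.066), and that of *Met* with clone quality weights (0.16). Its range with 1 clone left out was −0.41 to 0.30 for *Egfr*. The cause was not tested. Receptor genes called numbered 3 with clone quality weights, which called 895 genes in all, 5.02% of those tested, and gave Control 3 and KO 1 the lowest weights (0.279 and 0.286) and KO 3 the highest (3.91). With an unadjusted p-value in its place, 2 of the 400 genes called were receptor genes. The 400 were split as 129 lower and 271 higher, a split that was 183 and 187 after quantile normalization. All genes called numbered 0 without a filter, without a trend, with the replicate block and with voom on recovered reads, 2 at an adjusted p-value under 0.1, and between 0 and 2 with 1 clone left out, where receptor genes called stayed at 0.

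The clone numbers do not pair the clones: deviations from the group means correlated at 0.051, −0.12 and −0.074 for equal numbers. With the replicate block 0 receptor genes passed, and the log2 fold change of *Pdgfra* had an adjusted p of 0.646. Receptor genes without overlap numbered 1 at a mean of at least 5 TPM, where *Pdgfra* was not tested, and between 2 and 5 with 1 clone left out. The difference between the log2 fold changes of *Pdgfra* and *Kit* lay between −4.21 and −2.58 with 1 clone left out, and at −6.00 with a pseudocount of 0.1 TPM. The log2 fold change of *Pdgfra* was −5.48 with that pseudocount and −7.16 with voom. Depth limits *Pdgfrb*, *Erbb3* and the KO values of *Pdgfra*.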
